A study of Mus musculus with 9 samples.

Results

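The neighbourhood of Bdnf on mouse chromosome 2, from Mettl15 to Ano3, was followed here through 10 of its protein-coding genes in postnatal day 7 ventricles with and without cardiomyocyte Arid1a. The members were Mettl15, Kif18a, Bdnf, Lin7c, Lgr4, Ccdc34, Bbox1, Fibin, Slc5a12 and Ano3, in that order along the chromosome. They were 10 of the 38293 gene rows in the count table, and 8 of them had enough reads to be tested among 15318 genes. They were chosen by their place beside Bdnf, with the genotype fold changes of these libraries already known, so their genotype differences, and the calls the fit over all genes gave them, are given as a description and not as evidence. The question was whether adjacent genes are higher together when Arid1a is lost.

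The controls were 5 libraries from Arid1a f/f mice, which carry the floxed allele without Cre. The knockouts were 4 libraries from aMHC-Cre;Arid1a f/f mice (cKO), in which the alpha myosin heavy chain promoter drives Cre in cardiomyocytes. Both groups were therefore floxed for Arid1a, and they differed in the Cre transgene as well as in the deletion. The control group held no animals with Cre alone, so the transgene and the deletion cannot be told apart. All 9 were bulk mRNA libraries of whole ventricle, so a fall in the number of cells of a type and a fall in RNA per cell cannot be told apart. The study describes the libraries as hearts of separate mutants and littermate controls, and the labels do not say which control shared a litter with which mutant.

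Bdnf encodes brain-derived neurotrophic factor, a secreted ligand that binds the receptor kinase TrkB (Ntrk2) and, as its precursor, the receptors p75 (Ngfr) and sortilin (Sort1). Its gene has several alternative first exons with promoters of their own, each spliced to a shared coding exon. Lgr4 is a receptor for R-spondins that raises Wnt signalling by restraining the ubiquitin ligases Znrf3 and Rnf43. Arid1a is part of SWI/SNF, a complex that moves nucleosomes and so alters the access of transcription factors such as the TEAD proteins, the DNA-binding partners of YAP. Genes that lie close together can share chromatin state or enhancers, and they can also be controlled separately.

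The 10 genes spanned chr2:109092297-110950923 (GRCm38, GENCODE M21). Mettl15 and Kif18a lay head to head on opposite strands and overlapped by 11 bp. Bdnf followed 333 kb to the right of Kif18a, at chr2:109674700-109727007 on the plus strand. Lin7c began 216 kb from the Bdnf start, Lgr4 243 kb and Ccdc34 343 kb, all on the plus strand. The end of Lgr4 and the start of Ccdc34 were 3.56 kb apart, the narrowest gap between members that did not overlap. Bbox1 and Fibin were on the minus strand, with starts 640 kb and 688 kb from that of Bdnf. Slc5a12, on the plus strand, began 923 kb away, and Ano3, on the minus strand, began 1276 kb away.

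Some promoter windows of the members are printed below because they mark how the genes of 1 neighbourhood differ at their starts. All of those printed but that of Lin7c hold the TEAD core described next, so they do not stand for the full set. Each window covers 300 bases around a RefSeq start (GRCm38.p6), most of them upstream, and 8 of the 10 members matched, with 15 windows between them. The TEAD core GGAATG, searched on both strands, was present in 6 of the 15 windows and in 5 of the 8 matched members. Over all promoters of this length, 4817 of 32851 (14.7%) held the core. The members with it were Bdnf, Lgr4, Ccdc34, Fibin and Ano3, and those without it were Kif18a, Lin7c and Bbox1. Mettl15 and Slc5a12 had no window. The members were chosen with their genotype differences known, so nothing is read from this split. Capitals in the sequences below mark the core, written CATTCC where it lies on the other strand, and all are 5′ to 3′ on the strand of the gene.
Bdnf, window 7 of 7, chr2:109722671-109722970, plus strand: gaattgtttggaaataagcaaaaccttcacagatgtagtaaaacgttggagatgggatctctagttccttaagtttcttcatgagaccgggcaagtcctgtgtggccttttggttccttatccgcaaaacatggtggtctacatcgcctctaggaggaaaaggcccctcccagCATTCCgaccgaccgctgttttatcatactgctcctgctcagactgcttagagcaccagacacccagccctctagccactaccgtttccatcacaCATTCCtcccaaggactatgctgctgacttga
Lin7c, chr2:109890628-109890927, plus strand: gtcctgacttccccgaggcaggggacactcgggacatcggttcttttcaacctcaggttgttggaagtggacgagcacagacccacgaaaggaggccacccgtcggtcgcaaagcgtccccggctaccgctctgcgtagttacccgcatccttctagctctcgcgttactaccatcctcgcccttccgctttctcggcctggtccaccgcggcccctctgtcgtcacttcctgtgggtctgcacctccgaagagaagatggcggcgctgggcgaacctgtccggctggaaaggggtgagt
Lgr4, chr2:109917397-109917696, plus strand: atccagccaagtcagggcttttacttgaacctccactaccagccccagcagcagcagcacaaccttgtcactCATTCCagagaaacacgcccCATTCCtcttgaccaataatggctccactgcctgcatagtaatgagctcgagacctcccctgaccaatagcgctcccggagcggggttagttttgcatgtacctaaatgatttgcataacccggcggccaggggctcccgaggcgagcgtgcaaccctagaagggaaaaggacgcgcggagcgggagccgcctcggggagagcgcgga
Ccdc34, chr2:110017567-110017866, plus strand: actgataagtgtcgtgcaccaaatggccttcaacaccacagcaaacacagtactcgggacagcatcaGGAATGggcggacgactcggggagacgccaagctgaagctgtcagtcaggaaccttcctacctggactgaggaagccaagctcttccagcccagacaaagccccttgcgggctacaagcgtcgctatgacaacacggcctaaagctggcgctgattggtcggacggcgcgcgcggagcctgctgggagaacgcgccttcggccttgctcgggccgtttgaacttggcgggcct
Fibin, chr2:110362944-110363243, minus strand: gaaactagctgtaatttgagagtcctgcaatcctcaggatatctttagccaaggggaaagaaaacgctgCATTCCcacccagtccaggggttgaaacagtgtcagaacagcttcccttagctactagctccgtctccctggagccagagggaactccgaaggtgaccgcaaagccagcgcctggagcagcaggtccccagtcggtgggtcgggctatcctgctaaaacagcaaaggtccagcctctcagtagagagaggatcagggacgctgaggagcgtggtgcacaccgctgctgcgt
Ano3, window 2 of 2, chr2:110950195-110950494, minus strand: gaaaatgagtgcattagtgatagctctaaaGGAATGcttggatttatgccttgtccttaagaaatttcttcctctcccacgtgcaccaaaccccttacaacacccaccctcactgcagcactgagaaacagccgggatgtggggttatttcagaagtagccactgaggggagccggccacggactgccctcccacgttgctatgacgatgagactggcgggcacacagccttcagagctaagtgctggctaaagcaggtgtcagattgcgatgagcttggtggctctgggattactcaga

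Lgr4 held 2 copies of the core, at 178 and 158 bases before its start, both on the opposite strand. Ccdc34, its neighbour across the narrow gap, held 1 copy 183 bases before its start. Bdnf held the core in 2 of its 7 windows, window 7 above and window 2 at chr2:109676782-109677081. A gene with many windows has more chances to hold the core, and 33 of 56 tested genes with 5 or more windows (58.9%) did. Among tested genes with a window, 1664 of 11306 (14.7%) held it in at least 1 window, against 88 of 438 genes called higher in cKO (20.1%) and 44 of 293 called lower (15.0%). Lin7c, which sits between Bdnf and Lgr4, had none. Its window held 26 CpG dinucleotides at a GC content of 62.3%, near those of Kif18a (26 and 63.7%) and Ccdc34 (23 and 60.3%), against medians of 7 and 52.7% over all promoters.
Another 6 motifs were searched in the same windows on both strands. The estrogen-related receptor core AAGGTCA and 1 fixed spelling each of the MEF2 and NRF1 sites matched no member window, and they occurred in 4.72%, 0.11% and 0.971% of all promoters. The cAMP response element TGACGTCA matched Kif18a alone among the members, and 1.79% of all promoters held it. Its shorter core TGACG, which the whole element contains, matched Kif18a, 1 window of Bdnf, Lin7c and 1 window of Ano3, against 20.8% of all promoters. The sequence TATAAA matched Bbox1 and the other Ano3 window, against 13.6% of all promoters. A match to these letters is a description of the window and not a bound site.

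The libraries held 31011055 to 40073801 counts, and 3 counts corresponded to 0.0726 to 0.0970 CPM, the count of a gene relative to its TMM-scaled library total. Arid1a itself averaged 139.8 ± 8.84 CPM (SD, n = 5) in control against 106.4 ± 5.44 CPM (SD, n = 4) in cKO, with no overlap between the groups. Its log2 difference was -0.39 (SE 0.06), and the edgeR adjusted p was 0.00132. Apart from genotype, the 9 libraries formed 2 sets that differed in reads on the processed pseudogene Rps3a3. Control 1 and 2 and cKO 1 to 3 had 0.345 to 0.521 CPM of it (the low set), and control 3 to 5 and cKO 4 had 99.7 to 112 CPM (the high set). What the sets stand for is not given in the labels, so genotype differences are also given within each set. Cardiomyocyte genes were at high levels in all libraries, as the tissue label says, with a summed level of 52091 to 59598 CPM over 8 markers in control and 46740 to 50489 CPM in cKO.

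Bdnf had the largest genotype difference of the members, and Lgr4, Ccdc34 and Ano3 were also called higher. A gene was called when its adjusted p was under 0.05 and its fold change above 1.5. Of the 8 tested members 4 were called higher and 0 lower, while over all genes 614 were called higher (4.01%) and 416 lower (2.72%), or 6.72% in either direction. Between groups that did not overlap, 4 members were higher and 1 lower, against 8.16% and 8.58% of all genes. The members' 4 became 2 without control 2, without cKO 4 or in the low set alone, where 313 genes were called higher over all genes. The members were picked with this contrast known, so nothing is read from these counts. The median log2 fold change was 0.53 over the 8 tested members and 0.01 over all tested genes.

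**Figure D1:**
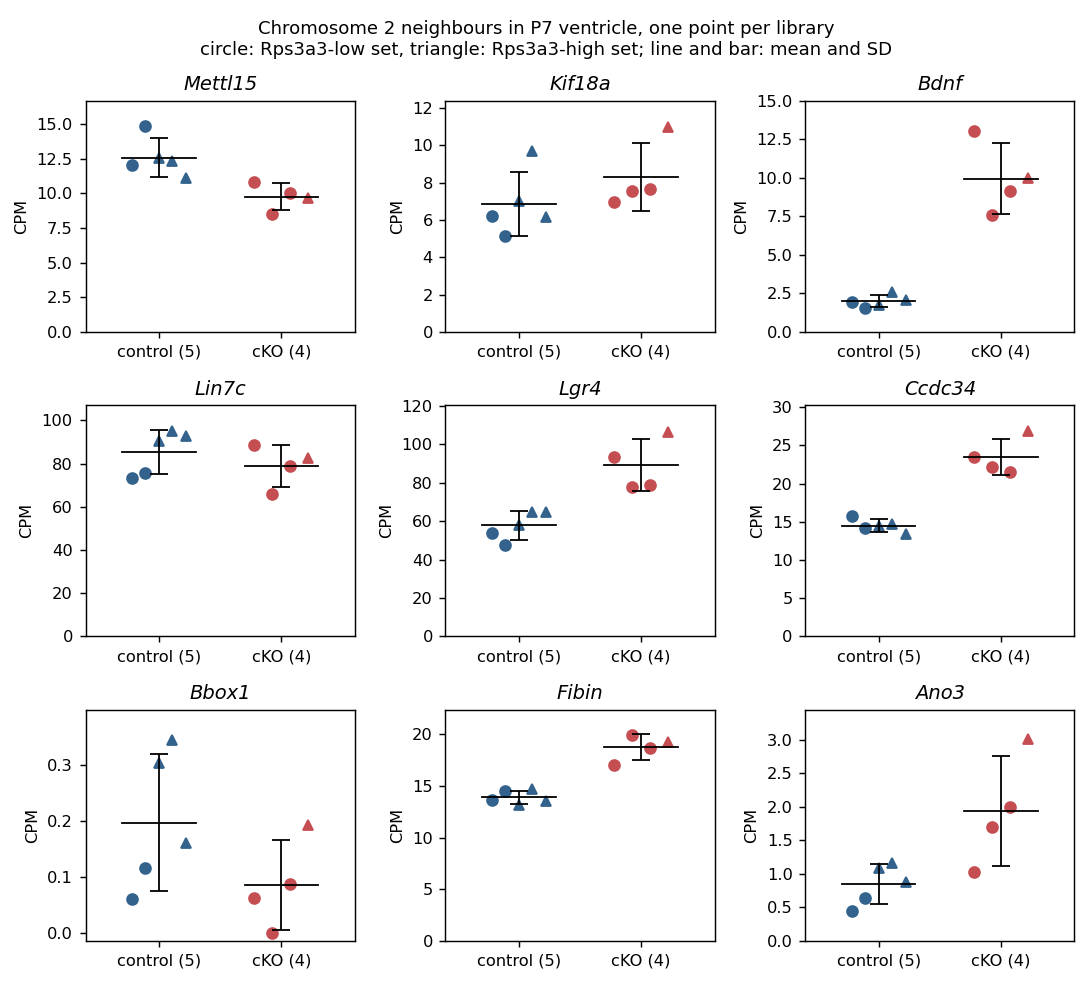
CPM (vertical axes) of 9 members in the 5 control and 4 cKO libraries, 1 point per library, with the mean and SD in black and the library sets as circles (low) and triangles (high). Bdnf, Lgr4, Ccdc34 and Fibin separate upwards and Mettl15 downwards, while Kif18a, Lin7c, Bbox1 and Ano3 overlap. Slc5a12, with 0 counts in all libraries, is not drawn.

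Bdnf was at 1.93, 1.56, 1.75, 2.61 and 2.07 CPM in control 1 to 5 and at 13.1, 7.58, 9.13 and 9.97 CPM in cKO 1 to 4. All cKO libraries were above all controls, with cKO 1 the highest and cKO 2 the lowest of their group. The means were 1.98 ± 0.399 CPM (SD, n = 5) and 9.94 ± 2.31 CPM (SD, n = 4), a ratio of 5.01 and a log2 difference of 2.32 (SE 0.19). In raw counts, Bdnf had 54 to 83 in control and 286 to 420 in cKO. Within the low set the log2 difference was 2.44, and within the high set 2.21.

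Lin7c, which encodes a small PDZ scaffold protein of cell junctions and synapses, lies next to Bdnf on the right. Its values were 73.1, 75.5, 90.5, 95.1 and 92.9 CPM in control 1 to 5 and 88.4, 65.8, 78.9 and 82.5 CPM in cKO 1 to 4. The groups overlapped, with the lowest library in cKO and the highest in control. The means were 85.4 ± 10.3 CPM (SD, n = 5) and 78.9 ± 9.59 CPM (SD, n = 4), and the log2 fold change was -0.11 (SE 0.10). Its sign differed between the sets, at 0.05 in the low and -0.17 in the high set. The tested gene nearest to Bdnf thus had a difference close to its SE.

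Lgr4, the R-spondin receptor, follows Lin7c after 16.6 kb. Its values were 53.6, 47.8, 57.9, 64.9 and 64.8 CPM in control 1 to 5 and 93.5, 77.9, 78.7 and 106 CPM in cKO 1 to 4. Each cKO library was above the highest control, and cKO 4 was the highest. The means were 57.8 ± 7.36 CPM (SD, n = 5) and 89.1 ± 13.6 CPM (SD, n = 4), a ratio of 1.54 and a log2 fold change of 0.63 (SE 0.11). This lay just above the 1.5-fold limit, and Lgr4 was not called without control 2 (log2 fold change 0.56) or without cKO 4 (0.53). With the library set as a term the log2 fold change was 0.74.

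Ccdc34 encodes a coiled-coil protein linked to cilia and sperm flagella. Its values were 15.7, 14.2, 14.4, 14.7 and 13.4 CPM in control 1 to 5 and 23.5, 22.2, 21.6 and 26.8 CPM in cKO 1 to 4. The groups were far apart relative to their spread, with cKO 4 again the highest library. The means were 14.5 ± 0.857 CPM (SD, n = 5) and 23.5 ± 2.35 CPM (SD, n = 4), a ratio of 1.62 and a log2 fold change of 0.70 (SE 0.09). An antisense gene, Ccdc34os, overlaps Ccdc34 over 19230 bp, and it had 0 to 3 counts per library. In the 5 low-set libraries alone the fitted value was 0.58, which lies under the limit of 1.5-fold.

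Fibin encodes a secreted protein first described in fin bud development, and it lies 688 kb from the Bdnf start. Its values were 13.7, 14.5, 13.2, 14.7 and 13.5 CPM in control 1 to 5 and 17.0, 19.96, 18.7 and 19.3 CPM in cKO 1 to 4. The groups did not overlap, and the controls were within a narrow range. The means were 13.9 ± 0.645 CPM (SD, n = 5) and 18.7 ± 1.26 CPM (SD, n = 4), a ratio of 1.35 and a log2 fold change of 0.43 (SE 0.08). Fibin was the member just outside the call, since its adjusted p was under 0.05 and its fold was not above 1.5, and Lgr4 was the member just inside.

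Ano3, of the anoctamin family of calcium-regulated channels and lipid scramblases, was the farthest member from Bdnf. Its values were 0.451, 0.637, 1.08, 1.16 and 0.873 CPM in control 1 to 5 and 1.03, 1.70, 1.999 and 3.002 CPM in cKO 1 to 4. The groups overlapped, because cKO 1 was below control 3 and control 4. The means were 0.841 ± 0.298 CPM (SD, n = 5) and 1.93 ± 0.822 CPM (SD, n = 4), a ratio of 2.30 and a log2 fold change of 1.20 (SE 0.34). These values rest on 15 to 39 counts in control and 33 to 124 in cKO. Ano3 was called in 12 of 18 settings and was lost in the low set alone (1.53) and without control 1, control 2, control 5, cKO 3 or cKO 4 (0.90 without cKO 4). Muc15 lies within Ano3 on the other strand over 18188 bp, and it had 0 to 13 counts per library.

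Mettl15, a mitochondrial ribosomal RNA methyltransferase, had 12.1, 14.9, 12.6, 12.3 and 11.1 CPM in control 1 to 5 and 10.9, 8.51, 10.02 and 9.64 CPM in cKO 1 to 4. The groups did not overlap, and this was the single member lower in every cKO library than in every control. The means were 12.6 ± 1.39 CPM (SD, n = 5) and 9.76 ± 0.974 CPM (SD, n = 4), or a log2 difference of -0.37 (SE 0.11). Its adjusted p was under 0.05, as for Fibin in the other direction. The fold did not reach 1.5, and Mettl15 was not called in any of the 18 settings.

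Kif18a, a kinesin that moves to plus ends of spindle microtubules and aligns chromosomes, starts within 11 bp of Mettl15. Its values were 6.23, 5.16, 7.04, 9.69 and 6.18 CPM in control 1 to 5 and 6.97, 7.53, 7.68 and 10.97 CPM in cKO 1 to 4. The groups overlapped, with control 4 and cKO 4 well above the rest of their groups. The means were 6.86 ± 1.72 CPM (SD, n = 5) and 8.29 ± 1.81 CPM (SD, n = 4), or a log2 difference of 0.27 (SE 0.19). It was 0.11 without cKO 4, 0.43 without control 4 and 0.44 with the library set as a term.

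Bbox1 and Slc5a12 were at or near 0. Bbox1, the last enzyme of carnitine synthesis, had 2, 4, 11, 11 and 5 counts in control 1 to 5 and 2, 0, 3 and 8 counts in cKO 1 to 4. It did not pass the filter on low counts and has no fold change here. Slc5a12, a sodium-coupled lactate and monocarboxylate transporter, had 0 counts in all 9 libraries, which allows up to 0.0726 to 0.0970 CPM per library, for counting error only. Both lie between tested members, Bbox1 between Ccdc34 and Fibin and Slc5a12 between Fibin and Ano3.

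Adjacent members were thus called together at 1 place, Lgr4 and Ccdc34, and this pair was lost without control 2 or without cKO 4, where Lgr4 was not called, and in the low set alone, where Ccdc34 was not called. Of the 7 pairs of consecutive tested genes that joined members, 1 had both genes called higher and 5 had exactly 1 gene called. Over the genome, 60 of 15140 consecutive tested pairs had both genes called higher (0.396%) and 1096 had 1. Among all genes called higher, 109 of 609 (17.9%) had a called-higher gene directly beside them, against 1185 of 15161 tested genes (7.82%). Members and pairs were chosen with results known, so their own counts are not set against these shares as a result.

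The genes around the members were not chosen for their values, and few of them were expressed. The window from 2 Mb left to 2 Mb right of the members held another 79 annotated genes, in whole or in part. Of these, 27 were olfactory receptors and 53 had 0 counts in all libraries. Of the 13 that lay between the outermost members, 0 passed the filter on low counts. In the flanks 10 were tested, 2 on the left and 8 on the right, and 1 was called higher and 0 lower. Over all tested genes 4.01% were called higher and 2.72% lower. The median log2 fold change of these 10 was 0.13, against 0.01 over all tested genes.

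The called neighbour was Ryr3, a ryanodine receptor that releases calcium from the sarcoplasmic reticulum. It starts 3542 kb from the Bdnf start, far outside the run of members. Ryr3 is on the minus strand, and its start lies beyond the right edge of the window, so only its end part falls inside. Its values were 1.02, 1.82, 1.25, 1.101 and 2.30 CPM in control 1 to 5 and 3.33, 9.97, 14.5 and 14.2 CPM in cKO 1 to 4. The groups did not overlap, with cKO 1 nearest the controls. Its log2 difference was 2.81 with an SE of 0.42 (edgeR adjusted p = 0.00146), and it missed the threshold in the low set alone (2.70, adjusted p = 0.116). Aven, whose gene overlaps the end of Ryr3 on the other strand, also passed the test (adjusted p = 0.0359) but stayed under 1.5-fold, with means of 14.3 and 18.4 CPM and a log2 difference of 0.36 (SE 0.11). The other 8 tested flanking genes, including those between Ano3 and Aven, did not pass.

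**Figure D2:**
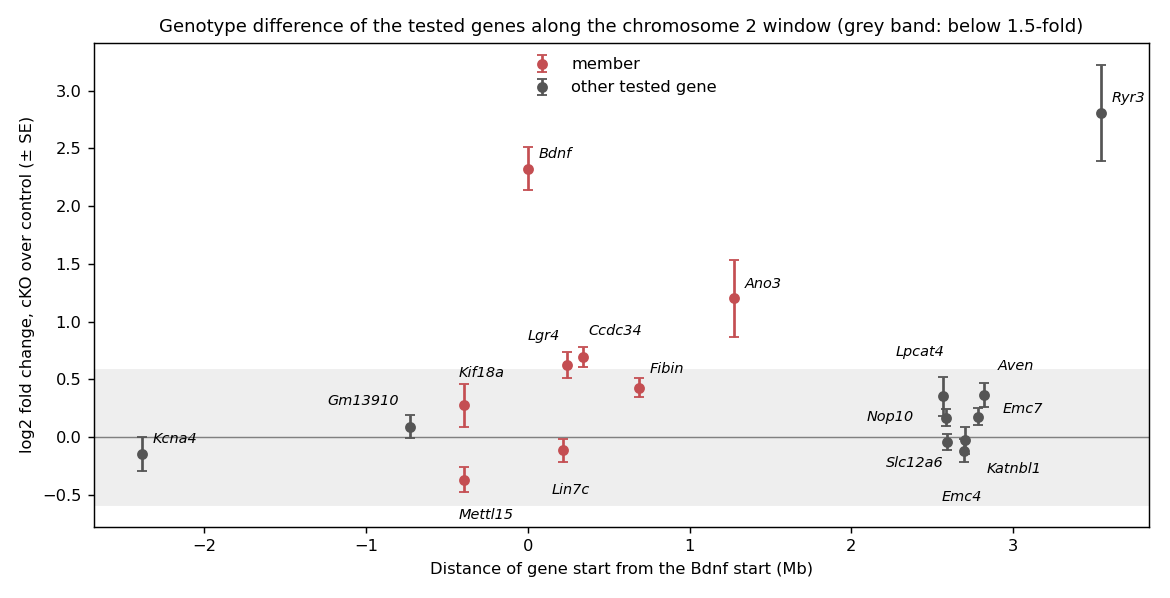
Log2 fold change of cKO over control with its SE (vertical axis) for the 18 tested genes of the chromosome 2 window, against the distance of their start from that of Bdnf (horizontal axis, Mb), with members in red, other genes in dark grey and differences under 1.5-fold in the grey band. Bdnf at 2.32 has Lin7c at -0.11 between it and Lgr4 at 0.63, and Ryr3 at 2.81 stands at the right edge beyond 7 tested flanking genes that lie inside the band.

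The genotype differences within each library set had the same sign for 7 of the 8 tested members, the exception being Lin7c. For Lgr4 they were 0.71 in the low and 0.77 in the high set, and for Fibin 0.40 and 0.48. Ano3 gave 1.41 and 1.49, and Ccdc34 0.58 and 0.92. For Kif18a they were 0.38 and 0.55, and for Mettl15 -0.46 and -0.31. The high set held 1 cKO library, so its differences rest on that library.

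**Figure D3:**
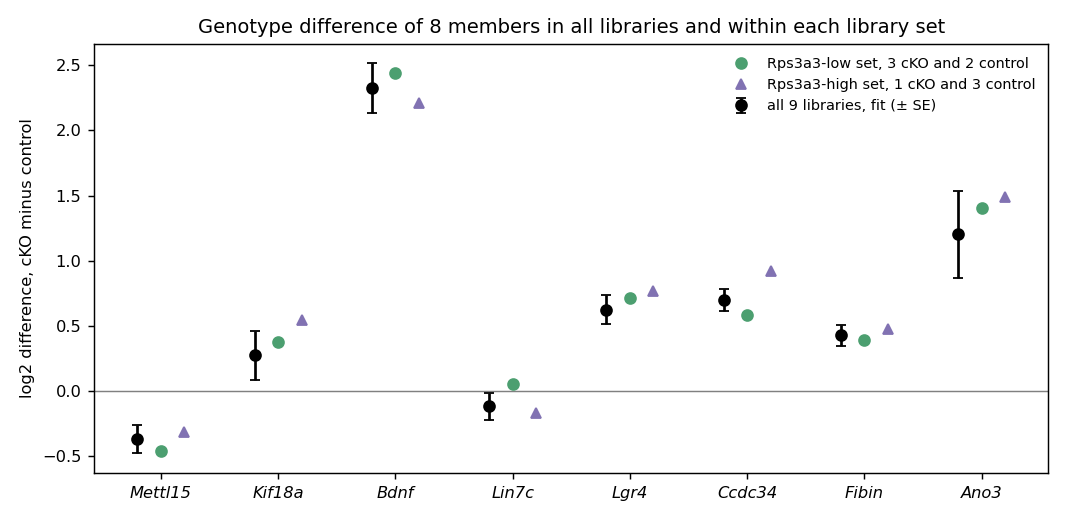
Log2 difference of cKO minus control (vertical axis) for the 8 tested members, from the fit to all 9 libraries with its SE (black), and as differences of mean log2 CPM in the low set (green circles) and in the high set (purple triangles). The sets lie on the same side of 0 for every member drawn but Lin7c.

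The difference between the library sets is a measure that did not enter the choice of members, and it was tested in a fit with genotype. Lgr4 was higher in the high set by 0.32 log2 units (SE 0.08, edgeR adjusted p = 0.0375), the 1 member of 8 to pass, while 737 of all tested genes passed (4.81%). Without control 2, control 4, control 5, cKO 3 or cKO 4 Lgr4 missed the threshold. Ano3 was higher by 0.93 (SE 0.25, adjusted p = 0.0555) and Kif18a by 0.48 (SE 0.14, adjusted p = 0.0736), both short of the threshold, and both passed with DESeq2 (adjusted p = 0.0249 and 0.0253). Bdnf differed by 0.16 between the sets (SE 0.20, adjusted p = 0.644), Ccdc34 by 0.06 (SE 0.09, adjusted p = 0.710) and Fibin by 0.01 (SE 0.08, adjusted p = 0.970). Control 4 was the highest control library for 6 of the 8 tested members, and cKO 4 the highest cKO library for 4 of them.

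Members differed far more in level than in genotype difference. Per kb of merged exon, Lin7c was the highest in control at 18.9 RPKM (16.2 to 21.03 over the 5 libraries), and Lgr4 followed at 9.82 RPKM. Fibin at 6.14 RPKM (5.83 to 6.49) and Mettl15 at 5.53 RPKM (4.88 to 6.53) overlapped and have no order beyond their spread. Ccdc34 was at 2.21 RPKM and Kif18a at 0.697 RPKM, and Bdnf came after them at 0.319 RPKM (0.252 to 0.420). Per kb of the longest transcript in place of all exons, Ccdc34 was at 4.13 RPKM, Kif18a at 1.05 RPKM and Bdnf at 0.465 RPKM, in the same order. Ano3 at 0.117 RPKM overlapped Bbox1 at 0.0449 RPKM. Bdnf therefore had the largest genotype difference from one of the lower levels in control, and Lin7c, the most abundant member, was among those whose groups overlapped.

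**Figure D4:**
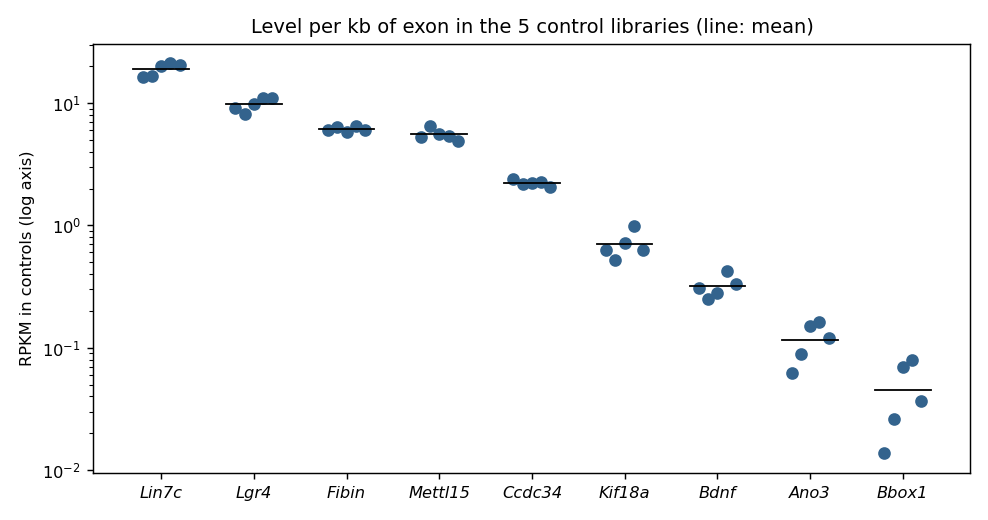
RPKM on a log axis for the 9 members with reads in the 5 control libraries, 1 point per library and a line at the mean. Lin7c at 18.9 RPKM leads, Fibin and Mettl15 overlap, and Bdnf at 0.319 RPKM lies above Ano3 and Bbox1.

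The 5 genes whose profile over the 9 libraries was nearest to Bdnf lay on other chromosomes. Likeness was the root mean square difference of centred log2 CPM, taken over 12548 tested genes with a mean of at least 1 CPM. Sytl2, which encodes a membrane-trafficking protein that binds Rab27, was nearest at 0.264. Its values were 8.88 to 14.8 CPM in control and 47.7 to 56.6 CPM in cKO. Slc35f1 followed at 0.306, Bex4 at 0.317, Fstl4 at 0.346 and Dct, an enzyme of melanin synthesis, at 0.371. The nearest members were Ano3 at 0.811, Ccdc34 at 0.831 and Lgr4 at 0.847, and Lin7c was at 1.20. Over 9 libraries of both genotypes this measure mostly follows the genotype difference, which was known when the members were chosen, and Bbox1 and Slc5a12 were not in it.

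The partners of the members were mostly without a change that passed the test. Over all lists, 85 genes that are no members were tested, and 13 were higher and 8 lower at adjusted p under 0.05, with a median log2 fold change of 0.03. The 8 became 5 without control 3, cKO 2 or cKO 3, and 3 in the low set alone. Over all tested genes 8.25% were higher and 8.03% lower by that rule. The 13 include 9 from the YAP list alone.

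For Bdnf, the ligand and processing list had 7 tested genes besides Bdnf, with 0 higher and 0 lower. Furin, which cleaves the precursor of Bdnf, was 98.9 ± 18.2 CPM (SD, n = 5) in control and 90.9 ± 14.04 CPM (SD, n = 4) in cKO (adjusted p = 0.602). Of 11 tested receptor and sorting genes 2 rose and 3 fell. Ntrk2, the TrkB receptor, had means of 2.72 ± 0.222 CPM (SD, n = 5) in control and 1.89 ± 0.299 CPM (SD, n = 4) in cKO. It fell by 0.53 in log2 units (SE 0.16, adjusted p = 0.0448). Its highest cKO library, at 2.33 CPM, was just below its lowest control, at 2.39 CPM. Sortilin (Sort1) fell by 0.37 (SE 0.07, adjusted p = 0.00506), with means of 91.4 CPM in control and 70.7 CPM in cKO. The sorting receptor Sorl1 rose by 0.53 (SE 0.11, adjusted p = 0.00674). Ngfr was at 5.96 ± 1.35 CPM (SD, n = 5) and 7.47 ± 0.542 CPM (SD, n = 4) and did not pass (log2 fold change 0.33, adjusted p = 0.220). Bdnf and its receptor Ntrk2 thus lay on opposite sides of 0 in the bulk tissue.

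For Lgr4, 0 of 8 tested R-spondin and receptor genes passed in either direction. Rspo3, an R-spondin ligand, was at 0.460 and 0.451 CPM in control and cKO (log2 fold change -0.03, SE 0.42, adjusted p = 0.972). Znrf3 was at 13.8 ± 1.63 CPM (SD, n = 5) and 11.9 ± 1.25 CPM (SD, n = 4), with a log2 fold change of -0.22 (adjusted p = 0.211). Rnf43 was at 0.147 and 0.179 CPM, under the filter on low counts.

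For Lin7c, 2 of 11 tested scaffold partners fell and 0 rose. Mpp3 fell by 0.37 (SE 0.10, adjusted p = 0.0246) and Dlg1 by 0.22 (SE 0.07, adjusted p = 0.0475). Cask, which binds Lin7 proteins directly, was at 29.3 and 28.3 CPM (log2 fold change -0.05, SE 0.09, adjusted p = 0.762).

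For Bbox1, 1 of 7 tested carnitine genes rose and 1 fell. Shmt1, a serine hydroxymethyltransferase, rose by 0.57 (SE 0.12, adjusted p = 0.00506), and the transporter Slc22a4 fell by 0.93 (SE 0.21, adjusted p = 0.0112). Slc22a5, the main carnitine importer, had a log2 fold change of -0.25 (adjusted p = 0.100), and Aldh9a1 of -0.11 (adjusted p = 0.421). Tmlhe was not analysed here.

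In the families of the other members, Ano4 fell by 0.97 (SE 0.24, adjusted p = 0.0150), the 1 of 6 tested anoctamins besides Ano3 to pass. Ano3 and Ano4 thus lay on opposite sides of 0. Of 9 tested spindle motor genes besides Kif18a, Cenpe, which carries chromosomes along microtubules, rose by 0.67 (SE 0.12, adjusted p = 0.00342). It was the 1 gene of these to pass, but all 9 had a positive log2 fold change, the smallest 0.26 in Kif23. Their median was 0.41, against 0.01 over all tested genes. Of the 3 tested SLC5 transporters and the 9 tested mitochondrial RNA methylation genes besides Mettl15, 0 passed.

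The YAP list had 9 of 14 genes higher and 1 lower, but it was put together with results of these libraries known and some of its targets, such as Fgf7 and Acta2, came to notice in them, so it is no independent evidence of direction. Fgf7, a fibroblast growth factor, had the largest difference of the list, with means of 0.518 CPM in control and 9.77 CPM in cKO (log2 difference 4.24, SE 0.24, adjusted p = 7.5e-07). Sytl2 rose by 2.21, Acta2, the smooth muscle actin, by 2.10 and Nppb, the brain natriuretic peptide, by 1.31. Tead2, a DNA-binding partner of YAP, fell by 0.33 (SE 0.08, adjusted p = 0.0195).

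**Figure D5:**
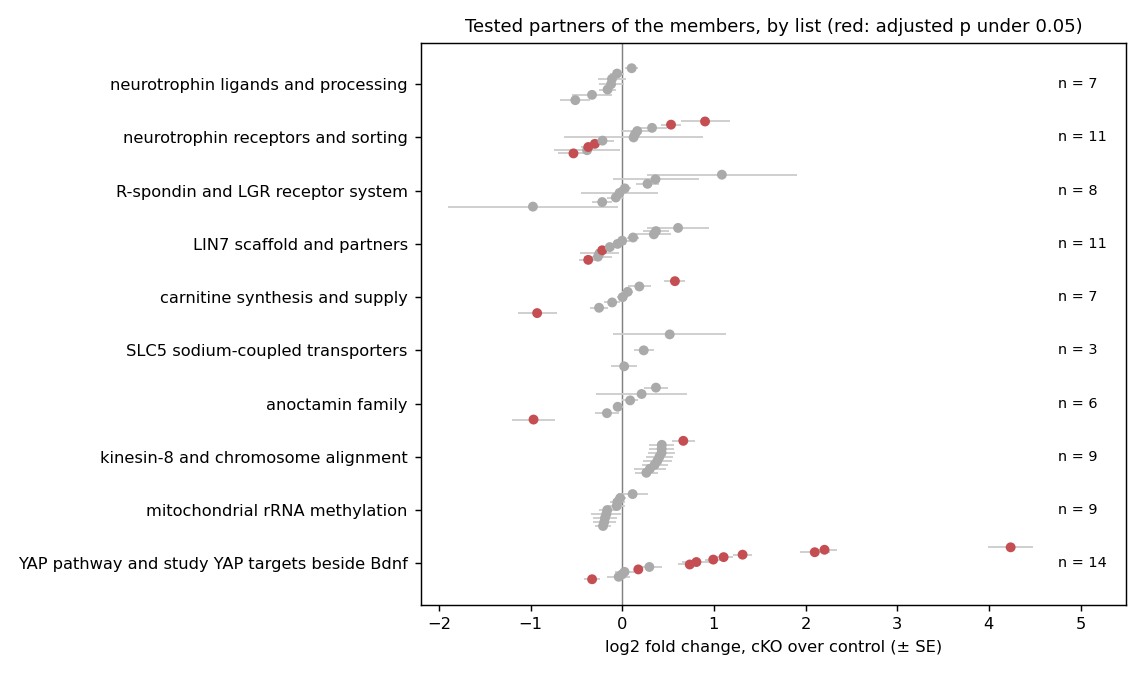
Log2 fold change of cKO over control with its SE (horizontal axis) for the tested partners of the members, 1 point per gene in each of 10 lists (rows, n = tested genes), red where the adjusted p was under 0.05. The receptor list holds 2 red points above and 3 below 0, and the YAP list, which was put together with results known, holds 9 above and 1 below.

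Markers of several cell types moved with genotype, and their part in the members' values was not tested. Fibroblast markers summed to 4400 to 4998 CPM in control and 5646 to 6006 CPM in cKO, with 4 of 8 (Col1a1, Col1a2, Postn and Tcf21) higher and 0 lower, and 0 of the 8 at 0. Cardiomyocyte markers had 1 of 8 higher (Nppa) and 2 lower (Myl2 and Pln). Of 8 tested Schwann cell and neuron markers, Dbh was higher and 0 were lower, and their sum was 19.2 to 23.9 CPM in control and 18.2 to 26.1 CPM in cKO. Epicardial markers summed to 22.9 to 87.1 CPM in control and 21.3 to 35.0 CPM in cKO, with 1 of 6 tested lower (Wt1). Endothelial markers had 1 of 8 lower (Tek), and mural markers and leukocyte markers had 0 of 7 tested passing in either direction. Of atrial markers 1 of 5 tested was higher (Myl7), of skeletal muscle markers 1 of 3 (Acta1), of erythroid markers 0 of 6, and 0 adipocyte markers were tested. Myod1 of the skeletal muscle list and Lep of the adipocyte list had 0 counts in all libraries.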

How the data were processed

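Total RNA from postnatal day 7 ventricles was made into stranded mRNA libraries, and the authors deposited raw counts per Ensembl gene. STAR 2.4.2a, HTSeq 0.6.1 and mm10 are named in the submitters' processing notes, and the strand setting and annotation used for counting are not given in the sources used here. Gene names, positions and exon lengths came from GENCODE M21, which matched 36345 of 38293 gene IDs and 99.82% of counts. Counts were filtered (filterByExpr, minimum count 10), scaled by TMM and tested with edgeR 4.0.16 (quasi-likelihood F test, genotype alone, two-sided, Benjamini-Hochberg over 15318 genes) in R 4.3.3. CPM and RPKM used TMM-scaled totals, and log2 CPM a prior count of 2. DESeq2 1.42.0, other scalings and filters, a library set term, the low set alone and leaving out each library were alternatives. The code was tested on simulated data.

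Members and lists were chosen with earlier results of these data known. Named genes were the members, Arid1a, window genes that were called or overlap a member, up to 4 passing genes per list, direct partners of the members, and the 5 genes nearest to Bdnf. 1 gene that this rule named is not reported here. Genes with symbols of the form Gm number or ending in Rik were left out of the likeness. Aven and the cell type markers that passed were named after their values were seen. Depth was 31011055 to 40073801 counts per library. Replicates differed by more than sampling noise, so none was counted as a repeat of another.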

Additional observations from a re-analysis of the deposited data

How the results depend on the processing

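The count of members called higher was 4 and fell to 2 in the 5 low-set libraries, and it ranged from 2 to 4 when each library was left out, with 2 without control 2 and 2 without cKO 4. In the low set alone 313 genes were called higher over all genes, against 614, and 0 flanking genes of the window, Arid1a had a log2 fold change of -0.33 (adjusted p = 0.0822), and 3 genes of the pathway lists passed as lower, against 8. Without each library in turn, all genes called higher numbered 534 to 710, the called flanking gene stayed at 1, pathway genes passing as higher numbered 11 to 18 and as lower 5 to 7, and members passing between the library sets 0 to 3. With the library set as a term 20 pathway genes passed as higher, against 13, and with no filter on low counts 5 passed as lower. DESeq2 had 3 members passing between the sets (Lgr4, Kif18a and Ano3), against 1. The cause was not tested. Per kb of the longest transcript, 6 members were at 1 RPKM or more in control, against 5.

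Replicate numbers gave no clear sign of pairs among the libraries. The check left the library sets in and had 4 pairs, so it cannot tell whether any pair shared a litter. Deviations of same-numbered control and cKO libraries correlated at 0.011 to 0.232, and 1 of 4 correlated best with its own number. With the replicate number as a block, 4 pathway genes passed as lower and 4 members were still called higher. Bdnf was called in all 18 settings, Ccdc34 in 17 and Lgr4 in 16, and Bdnf ranged from 2.16 to 2.50 on the log2 scale. The fold changes of the 4 called members, Arid1a and Ryr3 kept their sign in each setting. Of the other tested members Lin7c alone changed sign, to 0.06 in the low set alone. Counts of 0 to 124 per library limit Bbox1, Slc5a12 and Ano3.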
